A study of Homo sapiens with 16 samples.

Results

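The regions described here gained acetylation of histone H3 at lysine 27 (H3K27ac) in cisplatin (cPt) resistant A2780cis cells without a peak of acetylation at lysine 9 (H3K9ac) in the same cells. On the autosomes, any H3K27ac peaks of A2780 and A2780cis with 1 bp or more in common were joined into 1 region. The regions were chosen by 3 criteria, a width over 2000 bp, a peak in A2780cis but none in A2780, and no overlap with an H3K9ac peak of A2780cis. They numbered 1062 of 31493 merged regions, of 16641 merged regions over 2000 bp and of 1685 gained regions over 2000 bp. The gained regions lacking H3K9ac were thus 63.0% of the gained regions over 2000 bp (95% Wilson interval, 60.7 to 65.3). The intervals given here cover counting error only, and neighboring regions are not independent of each other.

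Both marks were profiled by ChIP-seq with 1 library per condition, so that no difference between cells has a replicate check and no p-value was computed. A2780 is an endometrioid ovarian cancer line sensitive to cPt, and A2780cis is its resistant derivative. CAOV4 is a high-grade serous ovarian cancer line, and CAOV4cis is the resistant line derived from it by a shorter cPt treatment. Both resistant lines were kept in cPt. H3K27ac was profiled in all 4 lines and in A2780 cells in which the short hairpin RNAs shMBD3.26 or shMBD3.232, from a doxycycline-induced vector, had reduced MBD3 for 1 week before GFP-positive cells were sorted, while H3K9ac was profiled in A2780 and A2780cis only. All chromatin carried a *D. melanogaster* spike-in, and the input libraries and cells with a control hairpin were not analysed here.

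Histone acetyltransferases place H3K27ac and H3K9ac at active promoters and enhancers, where bromodomain proteins can bind acetylated histones. H3K27ac is widely used to tell active from poised enhancers, and H3K9ac is strongest around active transcription start sites but also occurs at enhancers. MBD3 is a subunit of the NuRD complex, which joins histone deacetylases to a nucleosome remodeler.

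The 8 lists held 15058 to 27932 peaks on the autosomes, with median widths of 1600 to 2800 bp. They give positions in the GRCh37 (hg19) build. Every score is 0, so that neither the height of a peak nor its number of reads is known. No list held a peak above chromosome 19. The last peaks ended at position 197193000 on chromosome 1, 181094400 on chromosome 2 and 159576400 on chromosome 3, short of the ends of these chromosomes. Chromosomes 4 to 12 were cut short as well, for example at 131665000 on chromosome 8 and 121209200 on chromosome 12. Why the lists stop there is not given in the sources used here, so counts, also those per chromosome, hold for the listed part only. The A2780cis H3K9ac list was the shortest of the 8, with 15058 peaks against 22438 in the A2780 H3K9ac list, but its peaks were wider, at a median of 2600 against 1600 bp, and the lists covered 53.6 and 54.5 Mb. Genes and sequence under the regions were not analysed, because no annotation of this build was at hand.

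Gained regions without H3K9ac were narrow. Each was a single A2780cis peak. Their median width was 3200 bp (95% interval of the median, 3000 to 3200), with quartiles of 2600 and 4200 bp and a maximum of 23200 bp, and together they covered 3.99 Mb. Of the 1062, 780 were at most 4 kb wide, 265 were over 4 and up to 10 kb, and 17 were over 10 kb. The 623 gained regions with H3K9ac had a median of 5000 bp (4600 to 5200), quartiles of 3200 and 10500 bp and a maximum of 93200 bp, and 163 of them were over 10 kb. They covered 5.80 Mb, so that the larger group by number was the smaller by length. The 2777 regions common to A2780 and A2780cis that lacked H3K9ac in A2780cis were 3800 bp wide in the median, and the 1953 regions lost in A2780cis that lacked H3K9ac in A2780 had a median of 3000 bp.

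**Figure D1:**
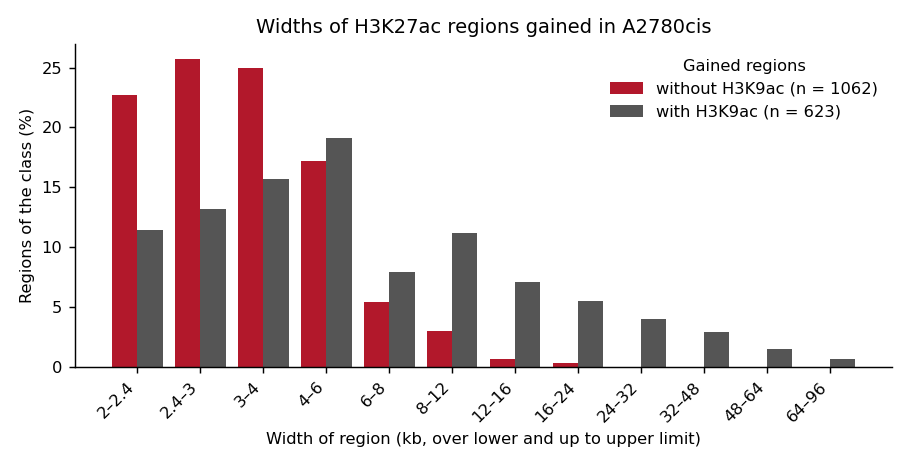
Share of gained H3K27ac regions (vertical axis, percent of the class) in each width class (horizontal axis, kb), for the 1062 regions without H3K9ac (red) and the 623 regions with H3K9ac (grey). Regions without H3K9ac pile up below 4 kb, and none of them is wider than 23200 bp.

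The share of gained regions that lacked H3K9ac fell with width, from 75.7% at 2 to 4 kb (72.9 to 78.2, 780 of 1031) to 55.9% at 4 to 10 kb (51.4 to 60.3, 265 of 474) and 9.44% over 10 kb (5.98 to 14.6, 17 of 180). Among common regions the corresponding shares were 39.7%, 19.1% and 6.49%. A wider region offers more bases in which an H3K9ac peak may lie, and this share comes from the list that chose the regions, so these values are a description.

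At the width limit, 129 regions measured 2200 bp, the narrowest width kept, and 138 gained regions without H3K9ac measured 2000 bp and were left out. Just inside the limit, 20.9% carried a peak with shMBD3.26, 15.5% with shMBD3.232, 17.1% in CAOV4, 20.9% in CAOV4cis and 7.75% an H3K9ac peak in A2780. Just outside it, the same shares were 18.8%, 16.7%, 19.6%, 19.6% and 4.35%.

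The rule did not use 5 of the 8 lists, namely H3K9ac in A2780 and H3K27ac with each hairpin, in CAOV4 and in CAOV4cis. No peak of any of these lists lay in 548 of the 1062 regions, or 51.6% (48.6 to 54.6), against 8.79% of all 13373 regions over 2000 bp with an A2780cis H3K27ac peak. A peak of 1 list lay in 259, of 2 lists in 172, of 3 lists in 55, of 4 lists in 17 and of all 5 lists in 11. The regions of the background include the common ones, which by definition have a peak in A2780, and the rule removed those here. A lower share than the background in lists from A2780 cells is therefore partly set by the rule. The background regions were also wider, at a median of 5000 bp against 3200 bp, and wide regions overlap a peak more easily. Backgrounds over all widths are therefore not matched for width. At 2 to 4 kb, 50.5% of the gained regions without H3K9ac had no peak in the 5 lists, against 14% of the background.

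In A2780 cells with shMBD3.26, 219 of the 1062 regions had an H3K27ac peak, or 20.6% (18.3 to 23.2), against a background of 82.6%. With shMBD3.232, 175 had one, or 16.5% (14.4 to 18.8), against 79.8%. At 2 to 4 kb, the shares were 21.0% against 71.3% with shMBD3.26 and 16.2% against 67% with shMBD3.232. Both hairpins shared 85 regions, which were 8.0% of the 1062 (6.52 to 9.79, background 76.0%), 38.8% of the regions marked with shMBD3.26 and 48.6% of those marked with shMBD3.232. At the gained regions with H3K9ac, the 33 regions shared by the hairpins were 27.7% and 52.4% of those marked with each. Over all 13373 regions, which include the common ones, the shared regions were 92.1% and 95.2%. At least 1 hairpin gave a peak in 309 of the gained regions without H3K9ac, or 29.1% (26.4 to 31.9), against 86.4% of all regions. The A2780 list without a hairpin comes from other cells, so a peak with a hairpin at a region that A2780 lacks cannot be told apart from the variation between libraries.

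Lost and common regions set these shares in context. Among the 1953 lost regions without H3K9ac, which have an A2780 peak by definition, 48% had a peak with shMBD3.26 (45.8 to 50.2) and 42.6% with shMBD3.232 (40.4 to 44.8). Among the 2777 common regions without H3K9ac, the shares were 75.9% and 73.0%.

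In CAOV4, 191 of the 1062 regions had an H3K27ac peak, or 18.0% (15.8 to 20.4), against a background of 60.5%. In CAOV4cis, 211 had one, or 19.9% (17.6 to 22.4), against 60.9%. At 2 to 4 kb, the CAOV4 share was 18.8% against a background of 46%, and the CAOV4cis share was 20% against 46.8%. Both CAOV4 lists held a peak in 119 of the 1062 regions, or 11.2% (9.45 to 13.2, background 51.5%). A peak only in CAOV4cis of the pair was found in 92, or 8.66% (7.12 to 10.5), with the background of 9.37% inside this interval. A peak only in CAOV4 was found in 72, or 6.78% (5.42 to 8.45), below the background of 9.03%. At 2 to 4 kb, 8.46% had a peak only in CAOV4cis (6.71 to 10.6, background 10.8%). In that class 7.31% had one only in CAOV4 (5.68 to 9.35, background 10%). The gained regions without H3K9ac were thus marked at 18.0% in the sensitive and at 19.9% in the resistant CAOV4 line. Both shares come from the same 1062 regions, so their intervals do not compare them. The lines differed at the 92 regions marked only in CAOV4cis and the 72 marked only in CAOV4. The lost regions without H3K9ac had CAOV4 and CAOV4cis peaks at 16.4% and 18.0%, close to the values of the gained regions, and the common regions without H3K9ac had them at 41.6% and 42.8%.

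H3K9ac in A2780 was found at 95 of the 1062 regions, or 8.95% (7.37 to 10.8), against a background of 68.5% and against 48.2% of the common regions that lacked H3K9ac in A2780cis. At these 95 regions, A2780 had a peak of H3K9ac without one of H3K27ac and A2780cis the reverse. The A2780 H3K9ac peaks there were small, at 800 bp in the median when the whole list had 1600 bp, and covered a median of 15.4% of the region.

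Where a peak was present, it often covered only part of the region. Peaks with shMBD3.26 covered a median of 36.0% of the region and were 1200 bp wide in the median, when that list as a whole had 2000 bp. Peaks with shMBD3.232 covered a median of 39.1% and were 1600 bp wide, against 2600 bp. In CAOV4 and CAOV4cis, the peaks covered a median of 58.3% and 61.5% and were 2800 and 3200 bp wide, against 2200 bp over each list. Peaks from A2780 cells at these regions were therefore narrower than those of their own list and peaks from CAOV4 cells wider. The same held at gained regions with H3K9ac. There the median widths were 900 bp for A2780 H3K9ac, 1000 bp for shMBD3.26, 1400 bp for shMBD3.232 and 2600 bp for CAOV4 and for CAOV4cis. Both classes of gained regions were chosen to lack an A2780 H3K27ac peak, which may partly set the widths of peaks from A2780 cells. A wide peak also overlaps a region more easily, and the widths of peaks at common regions were not computed. Summed over all 1062 regions, the bases covered by a peak came to 2.01% for A2780 H3K9ac, 7.16% for shMBD3.26, 6.60% for shMBD3.232, 9.45% for CAOV4 and 10.8% for CAOV4cis.

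Single regions show these patterns. The widest region marked with both hairpins and in neither CAOV4 list, chr3:87618801-87628400, had 47.9% of its length under peaks of shMBD3.26 and 87.5% under peaks of shMBD3.232. The widest marked in both CAOV4 lists and with neither hairpin, chr5:124075601-124087000, had 38.6% of its length under a CAOV4 peak and 52.6% under a CAOV4cis peak, and lay 1195.8 kb from the nearest A2780 H3K27ac peak. Among the regions with a peak in all 5 lists the widest was chr16:70160801-70167600, where CAOV4cis covered 100% and CAOV4 76.5% of the 6.80 kb but the A2780 lists covered 14.7% (H3K9ac), 5.88% (shMBD3.26) and 11.8% (shMBD3.232). By contrast, the widest regions marked only in CAOV4cis of that pair (chr17:27964401-27975600) and only in CAOV4 (chr18:67800201-67808200) owed this to peaks over 10.7% and 2.50% of their length. Likewise, the widest region with H3K9ac in A2780 as its only other peak, chr15:72491801-72499600, was covered to 2.56%.

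Whether the other lists differed between gained regions with and without H3K9ac was asked within width classes, because wide regions overlap a peak more easily. Over all widths, only the share with shMBD3.232 had an interval of the difference (Newcombe) that excluded 0 among the single lists. It was 16.5% without and 10.1% with H3K9ac, a difference of 6.37 percentage points (3.0 to 9.54). The difference turned to -11.9 points when the same number of widest peaks was taken from each list and to -3.40 points with peaks over 2000 bp only, both of them settings that also changed which regions were gained. The differences were 1.52 points for shMBD3.26 (-2.49 to 5.37), -1.76 for CAOV4 (-5.73 to 2.05), -3.57 for CAOV4cis (-7.73 to 0.464) and -2.29 for A2780 H3K9ac (-5.43 to 0.631).

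At 2 to 4 kb, regions without H3K9ac less often had a peak in CAOV4cis, at 20% (n = 780) against 31.5% (n = 251), a difference of -11.5 points (-18.0 to -5.29). The same held for CAOV4, at 18.8% against 26.3% (-7.45 points, -13.8 to -1.62), and for shMBD3.26, at 21.0% against 27.5% (-6.46 points, -12.9 to -0.503). For shMBD3.232 the shares were 16.2% and 15.9%, a difference of 0.218 points (-5.37 to 5.08). In this class 50.5% of the regions without and 39.4% of those with H3K9ac had a peak in none of the 5 lists, a difference of 11.1 points (3.98 to 17.9). At 4 to 10 kb this share was 53.2% without and 56.5% with H3K9ac (-3.25 points, -12.1 to 5.75), and over all widths 51.6% and 53.9% (-2.33 points, -7.24 to 2.61). At 4 to 10 kb, regions without H3K9ac more often had a peak with shMBD3.232, at 17.7% (n = 265) against 7.66% (n = 209), or 10.1 points (4.03 to 15.9). The differences for CAOV4cis (-3.92 points, -11.5 to 3.51) and CAOV4 (-3.39 points, -10.5 to 3.49) kept their sign there, with intervals that included 0. That for shMBD3.26 was 4.01 points (-3.18 to 10.9), and its interval included 0 too. Of the 17 regions over 10 kb, 13 had no peak in the 5 lists, or 76.5% (52.7 to 90.4), against 73.0% of 163 with H3K9ac.

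**Figure D2:**
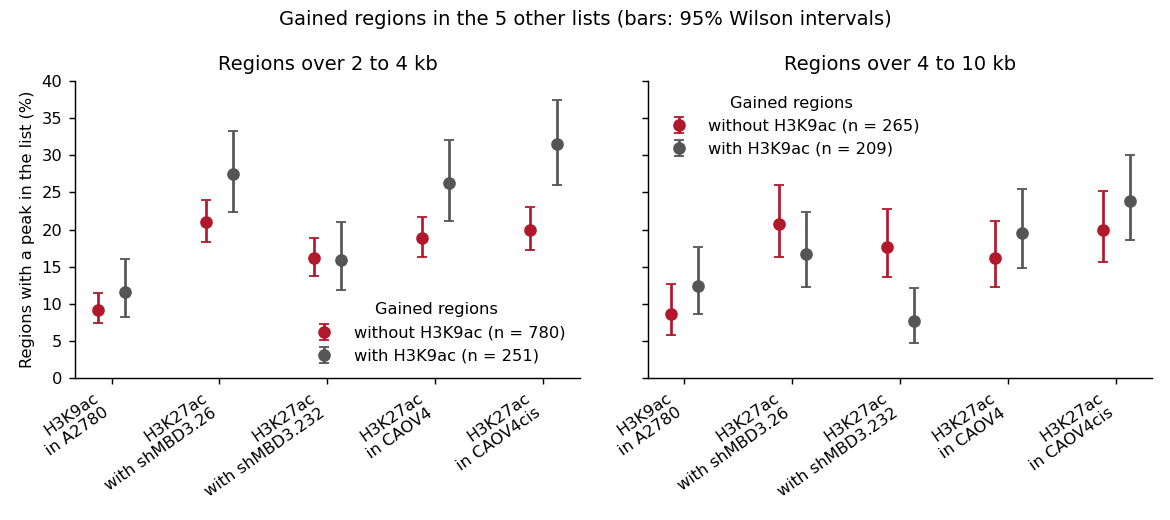
Share of gained regions with a peak in each of the 5 lists that the rule did not use (vertical axis, percent), for regions of 2 to 4 kb (left) and 4 to 10 kb (right), without H3K9ac (red) and with it (grey); bars are 95% Wilson intervals from counting. At 2 to 4 kb the red points for CAOV4cis (20%) and CAOV4 (18.8%) lie below the grey ones (31.5% and 26.3%), and at 4 to 10 kb the red point for shMBD3.232 (17.7%) lies above the grey one (7.66%).

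Gained regions without H3K9ac lay closer to H3K27ac of A2780 than gained regions with H3K9ac did. The median distance from a region to the nearest A2780 H3K27ac peak was 10.4 kb (95% interval of the median, 8.80 to 12.2) with quartiles of 3.05 and 55.0 kb, against a median of 36.4 kb (29.2 to 47.4) for gained regions with H3K9ac. Within 12500 bp, a distance at which peaks are commonly stitched into one domain, 568 regions had an A2780 peak, or 53.5%, against 193 of 623 with H3K9ac, or 31.0%. At 2 to 4 kb, the medians were 9.20 kb without (7.60 to 11) and 22.0 kb with H3K9ac (14.4 to 27.6), and at 4 to 10 kb they were 12.8 kb (9.20 to 18.6) and 36.4 kb (25.4 to 51.8). Over 10 kb the order turned, with a median of 222 kb for the 17 regions without H3K9ac (39.8 to 1195.8) and 110.6 kb for the 163 with it (71.2 to 172.4), and overlapping intervals. Of these wide regions, 11.8% and 17.2% had an A2780 peak within 12500 bp. The A2780 list also served to choose the regions, so these distances are descriptions. The nearest H3K9ac peak of A2780cis lay a median of 11.8 kb away (10.6 to 13.2), with quartiles of 4.40 and 34.0 kb, and 57 of the 1062 regions had one within 1 kb, or 5.37%.

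**Figure D3:**
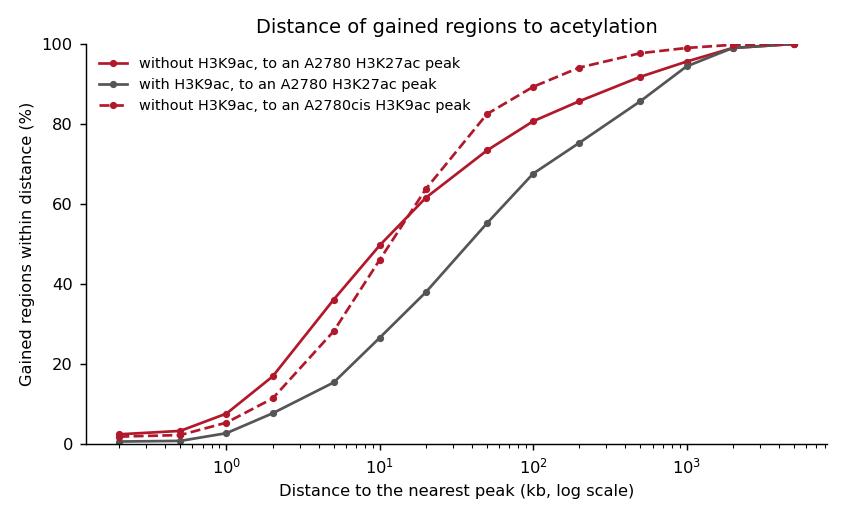
Cumulative share of gained regions (vertical axis, percent) with a peak within a given distance (horizontal axis, kb, log scale), for A2780 H3K27ac peaks from regions without (red, solid) and with H3K9ac (grey), and for A2780cis H3K9ac peaks from regions without H3K9ac (red, dashed). The solid red curve reaches 36.1% at 5 kb and the grey curve 15.4%.

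The regions close to an A2780 peak and those far from one differed in the 5 other lists. Among the 568 with an A2780 peak within 12500 bp, 39.6% had no peak in the 5 lists (35.7 to 43.7), against 57.1% of the 289 at 12500 bp to 100 kb (51.3 to 62.7) and 77.1% of the 205 without an A2780 peak within 100 kb. Peaks with shMBD3.232 fell from 24.1% (20.8 to 27.8) to 9.69% and 4.88% (2.67 to 8.75) over these classes, and those with shMBD3.26 from 26.1% to 17.3% and 10.2%. H3K9ac in A2780 went from 71 of 568 regions to 6.57% and 2.44%. CAOV4cis went from 25.2% to 17.0% and 9.27%, and CAOV4 from 21.5% (18.3 to 25) to 14.9% and 12.7% (8.80 to 17.9). The median width was 3200, 3200 and 3400 bp in the 3 classes. The share within 12500 bp of a gained region with H3K9ac moved the other way, from 3.70% (2.43 to 5.59) to 14.2% and 25.4% (19.9 to 31.7). The A2780 list that sets these distance classes also served to choose the regions. The shares in the 5 lists were not computed by distance for any other class of regions. Whether this fall is particular to the regions without H3K9ac was therefore not tested.

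**Figure D4:**
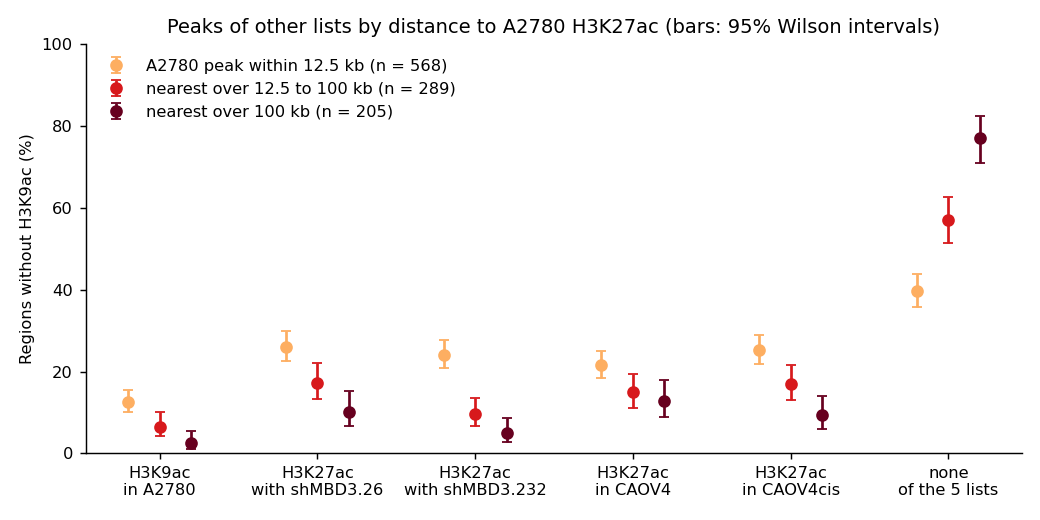
Share of the 1062 gained regions without H3K9ac (vertical axis, percent) that have a peak in each of the 5 other lists, or in none of them (horizontal axis), split by distance to the nearest A2780 H3K27ac peak (568, 289 and 205 regions, light to dark); bars are 95% Wilson intervals from counting. Each list drops from light to dark, and the share with no peak rises from 39.6% to 77.1%.

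Of the regions next to a gained region without H3K9ac on the chromosome, 849 of 2123 were common to both cell lines, a class that held 43.8% of all 31493 merged regions. Lost regions made up 18.6% of the neighbors (394) and 38.4% of all regions. Gained regions of at most 2000 bp without H3K9ac made up 18.1% (384) and 11.2% of all, other gained regions without H3K9ac over 2000 bp 13.9% (296) and 3.37% of all, and gained regions of any width with H3K9ac 9.42% (200) and 3.25% of all. Next to gained regions with H3K9ac over 2000 bp, 13.5% of the neighbors were gained regions without H3K9ac over 2000 bp. Another 25.4% were gained regions with H3K9ac and 10.2% were lost regions. Gained neighbors were thus not particular to the regions without H3K9ac. A gained region without H3K9ac over 2000 bp lay within 12500 bp of another one in 221 cases, or 20.8%. It lay within 12500 bp of a gained region with H3K9ac in 114, or 10.7% (9.01 to 12.7).

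Gained regions no more than 12500 bp apart, with or without H3K9ac, formed 1358 domains. Domains made only of regions without H3K9ac numbered 842 and held 929 of the 1062 regions. The other 133 regions stood beside 141 regions with H3K9ac in 91 mixed domains. In mixed domains, the regions without H3K9ac had a median width of 4200 bp (3800 to 4600) and 84.2% had no peak in the 5 other lists (77.1 to 89.4), against 3000 bp (3000 to 3200) and 46.9% (43.7 to 50.1) in the others. An A2780 H3K27ac peak lay within 12500 bp of 18.8% of them (13.1 to 26.3), against 58.4% of the others (55.3 to 61.6). Peaks of CAOV4cis were found at 5.26% of the regions in mixed domains (2.57 to 10.5) and at 22.0% of the others (19.4 to 24.7). Peaks with shMBD3.26 were found at 4.51% (2.08 to 9.49) and 22.9% (20.3 to 25.7).

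The mixed domain with the most regions without H3K9ac was chr1:70031001-70138200, with 7 of them over 43.8 kb and 3 gained regions with H3K9ac over 32.6 kb. The 7 regions lay between positions 70070001 and 70138200, 263.6 kb from the nearest A2780 H3K27ac peak, and none of the 5 other lists covered a base of that stretch. Next came the domain at FGF10, chr5:44292001-44413400, with 6 and 2 regions, and chr4:57904001-57945800, with 3 and 1. In chr13:58266401-58313600, 4 regions without H3K9ac summed to 38.2 kb with no gained region with H3K9ac closer than 14.4 kb, 2416.4 kb from an A2780 peak and again with no base covered in the 5 lists.

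The 8 widest regions without H3K9ac had no peak in any of the 5 other lists. They were chr3:116993801-117017000 (23.2 kb), chr1:103538201-103560200 (22.0 kb), chr3:87997401-88013600 (16.2 kb), chr3:85831001-85846200 (15.2 kb), chr3:116858001-116872600 (14.6 kb), and 3 regions of 14.2 kb each, chr6:76143201-76157400, chr11:84156001-84170200 and chr13:58266401-58280600. Of these 8, 4 lay on chromosome 3, which held 80 of the 1062 regions. The nearest A2780cis H3K9ac peak was 3.20 to 57.8 kb away. A gained region with H3K9ac lay within 5 kb of 4 of the 8, and of 71 of the 1062, or 6.69%. The 8 were picked by width, so these counts are a description.

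The windows that the study drew around single genes were looked up in the lists. The study ranked FGF10 and JAK1 highly by a score that included their H3K27ac signal, so gained regions there are a description. FGF10 encodes a secreted fibroblast growth factor that signals through the receptor FGFR2 in epithelia. Its window held 6 gained regions without H3K9ac, of 6.40, 9.60, 4.20, 5.20, 4.60 and 2.20 kb, which summed to 32.2 kb. Among them lay 2 gained regions with H3K9ac of 22.6 and 30.0 kb, in which H3K9ac peaks covered 11.5% and 34.0%. The 6 regions without H3K9ac had no peak in the 5 other lists, and A2780 had no H3K27ac peak in the window. The only peak of the 5 lists in the gained regions of the window was a peak with shMBD3.26 over 0.667% of the 30.0 kb region.

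**Figure D5:**
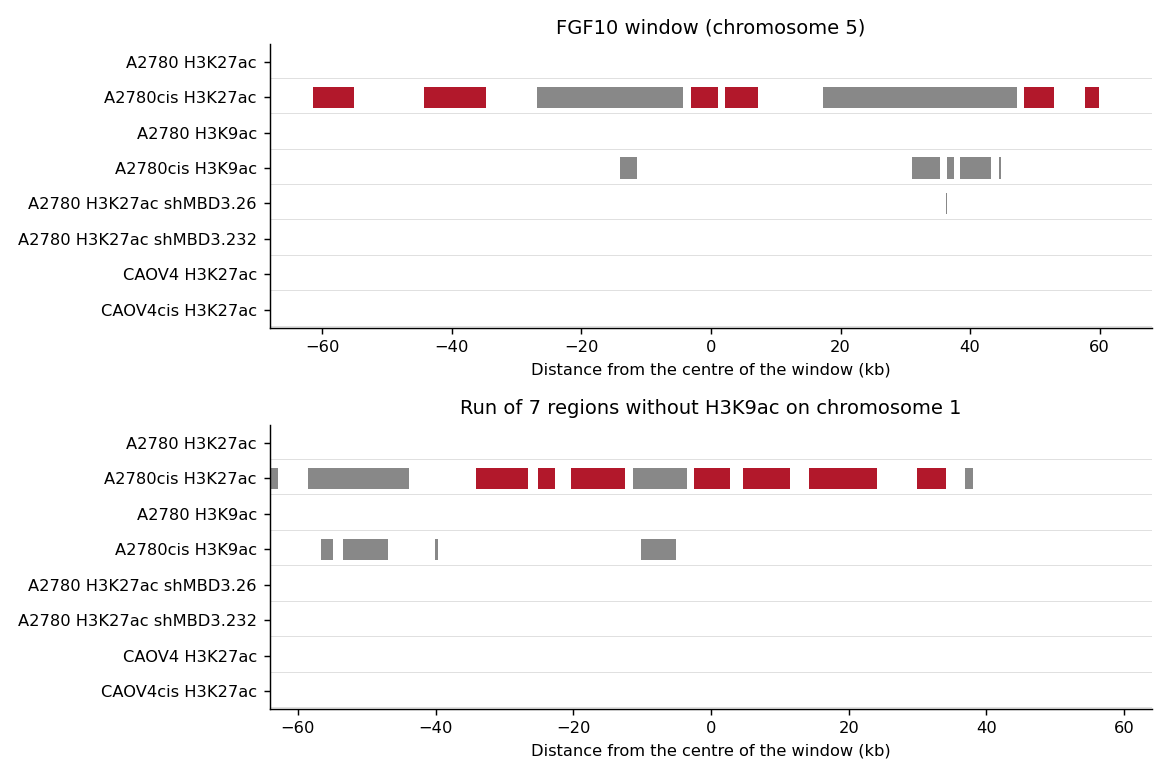
Peaks of the 8 lists in the FGF10 window on chromosome 5 (top) and around the run of 7 gained regions on chromosome 1 (bottom), as bars along the distance from the centre of the window (horizontal axis, kb). Red bars are gained regions without H3K9ac and grey bars all other peaks. The red bars, 6 in the upper and 7 in the lower map, have no counterpart in any other list.

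JAK1 encodes a tyrosine kinase bound to cytokine receptors that activates STAT factors. Its window held 1 gained region without H3K9ac, chr1:65355001-65357800, of which a CAOV4cis peak covered 57.1% and no peak of the other 4 lists any base. It also held 2 gained regions with H3K9ac of 5.00 and 3.40 kb, without a peak in the 5 lists. Unlike at FGF10, A2780 had an H3K27ac peak in this window, 1 against 6 in A2780cis. The LINC00871 window held 1 gained region, which had H3K9ac, and the CTNNA3 window held none.

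Gained regions without H3K9ac were found on each of the 19 chromosomes with peaks, from 11 on chromosome 13 to 110 on chromosome 1. Their share of the gained regions went from 48.9% on chromosome 18 (23 of 47, 35.3 to 62.8) to 83.3% on chromosome 19 (50 of 60, 72.0 to 90.7). Of all regions over 2000 bp with an A2780cis H3K27ac peak, by contrast, chromosome 19 had the lowest share of gained regions without H3K9ac, at 4.11% (50 of 1218, 3.13 to 5.37), followed by chromosome 13 at 5.12% (2.88 to 8.93), and chromosomes 6 and 8 the highest, at 10.9% each. Among the gained regions, chromosomes 13, 15, 16 and 17 were also above 70%, at 73.3%, 76.6%, 75% and 73.6%. Those on chromosomes 12 and 19 lay mostly near A2780 peaks, with 89.5% and 86.0% within 12500 bp, and those on chromosomes 4 and 6 seldom, with 27.7% and 25.4%. On chromosome 13, none of the 11 lay within 12500 bp of an A2780 peak. Chromosome 13 also stood apart in the lists themselves, since A2780cis held 306 H3K27ac peaks there against 657 in A2780 (46.6%) and 102 H3K9ac peaks against 523 (19.5%), while on the other chromosomes the A2780cis count was 66.5% to 82.7% of the A2780 count for H3K27ac and 54.8% to 85.7% for H3K9ac. The part that this thinner H3K9ac list on chromosome 13 played in the absence of H3K9ac peaks there was not tested.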

How the data were processed

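Per the labels and methods, the authors mapped the ChIP-seq reads by Bowtie2, applied a quantile normalization, ran MACS2 for peak calling and deposited 1 peak list per library. The deposited lists give peak positions (GRCh37, hg19, per the labels) and a score of 0 in every row. Boundaries fell on multiples of 200 bp in all but 1 row, with gaps of 1000 bp or more within a list, and no source used here names the step behind this layout. Positions are printed counting from 1.

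Peaks were merged at an overlap of 1 bp, and each region was looked up in the other lists. Shares carry 95% Wilson intervals, differences Newcombe intervals and medians order-statistic intervals, all for counting error. Domains used a distance of 12500 bp. Python 3.11.15, numpy 2.4.6, pandas 2.3.3, SciPy 1.17.1 and matplotlib 3.10.9 were used, and the classing was tested on simulated lists. Named regions were the 8 widest, the runs and domains with the most regions, the widest of each pattern and the windows drawn by the study, of which 1 is not reported here. The regions, lists and comparisons were chosen with earlier results of these data known. Genes and sequence under the regions need a GRCh37 annotation and were not analysed here.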

Additional observations from a re-analysis of the deposited data

How the results depend on the processing

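Leaving out each of the 19 chromosomes in turn moved none of 323 values beyond its interval or, for the number of regions, beyond 1.5 times. Of 119 values under the other alternatives, 57 stayed within these limits, 60 moved and 2 reversed. Leaving out a chromosome kept at least 952 of the 1062 regions, so that check could hardly move a value. With 1 library per condition, nothing here measures the spread between cultures, and peak height and read depth are unknown. No paired analysis was possible because each condition has 1 library and the labels give no replicate numbers. Comparisons of genes and sequence under the regions were not run, for want of an annotation of the build. The causes of the changes were not tested.

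The number of gained regions without H3K9ac was 587 when peaks within 5 kb counted as shared, 2276 over 1000 bp, 158 over 5000 bp, 1625 when every list was limited to its 15058 widest peaks, 2376 with peaks over 2000 bp only, and 494 without an A2780 H3K27ac peak within 12500 bp. The last of these settings was added after the data had been seen. In this order of settings, where a value moved, the share with no peak in the 5 other lists was 46.7%, 55.1%, 60.1%, 55.1%, 60.5% and 65.4%.

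With peaks within 5 kb counted as shared, the shares were 12.3% for A2780 H3K9ac, 23.7% for shMBD3.26, 20.6% for CAOV4, 25% for CAOV4cis and 14.1% for both CAOV4 lists, the median distance to an A2780cis H3K9ac peak was 24800 bp, and the differences from gained regions with H3K9ac were 6.23 points for shMBD3.26 and 1.46 for CAOV4cis. With an overlap of 50% of the shorter peak, that distance was 10400 bp.

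Over 1000 bp, the share with shMBD3.232 was 14.1%, that near a gained region with H3K9ac 8.35%, the median width 2000 bp, the distance 13800 bp, and the differences -3.15 points for shMBD3.26 and 2.59 for shMBD3.232. Over 5000 bp, the shares were 19.6% for shMBD3.232, 14.6% for CAOV4, 17.1% for CAOV4cis and 19.0% near a gained region with H3K9ac, the median width was 6600 bp, the distance 10000 bp, and the differences 6.36 points for shMBD3.26, 14.6 for shMBD3.232 and 2.14 for CAOV4cis.

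With equal numbers of peaks, the shares were 18.0% for shMBD3.26 and 20.7% for shMBD3.232, and all 5 differences were negative, at -13.5 points for A2780 H3K9ac, -14.1 for shMBD3.26, -11.9 for shMBD3.232, -11.0 for CAOV4 and -12.2 for CAOV4cis. With peaks over 2000 bp only, the shares were 5.93% for A2780 H3K9ac, 12.0% for shMBD3.26, 14% for shMBD3.232, 5.22% for both hairpins and 7.58% near a gained region with H3K9ac, the distance was 24400 bp, and the differences were -6.44 points for shMBD3.26, -3.40 for shMBD3.232 and -5.92 for CAOV4. The difference for shMBD3.232, 6.37 points as reported, thus reversed in both settings.

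Without an A2780 peak within 12500 bp, the shares were 4.86% for A2780 H3K9ac, 14.4% for shMBD3.26, 7.69% for shMBD3.232, 14% for CAOV4, 13.8% for CAOV4cis, 4.66% for both hairpins, 8.30% for both CAOV4 lists and 17.6% near a gained region with H3K9ac, the distance was 28000 bp and the difference for shMBD3.232 was 2.58 points.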

Other observations

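Below the width limit, 3536 gained regions of at most 2000 bp lacked H3K9ac in A2780cis. No peak of the 5 other lists lay in 65.0% of them (63.4 to 66.5). Peaks were found at 12.4% with shMBD3.26 (11.4 to 13.5), 9.39% with shMBD3.232 (8.47 to 10.4), 13.3% in CAOV4 (12.3 to 14.5), 14.1% in CAOV4cis (13.0 to 15.3) and 5.35% for H3K9ac in A2780 (4.65 to 6.14). CAOV4cis held a peak without CAOV4 in 217 of them and CAOV4 without CAOV4cis in 191.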
